A study of Mus musculus with 16 samples.

Results

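The genes described here encode the proteins that move copper into, through and out of the cell, together with the metallothioneins, which bind it. They are the importers Slc31a1 and Slc31a2, the exporting ATPases Atp7a and Atp7b, the carriers Atox1 and Ccs, the trafficking protein Commd1, and the metallothioneins Mt1 and Mt2. They were chosen by name, and all 9 of 9 were found by symbol among the 25719 genes with counts. Atp7b was put on the list because of its response in these same libraries, so its values are given as a description with no test. The other 8 were listed for their function, but with earlier results of these data known, so their adjusted p-values are not independent evidence that the family responds.

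RNA was sequenced from mouse tail tendon fascicles, the thin collagen strands that can be drawn out of the tail. The labels give the cell type as all cells of the tissue. There were 8 wild type libraries and 8 libraries labelled KO, which the series describes as ScxCre;Vhlf/f. In these mice Cre recombinase under the control of Scx, a transcription factor gene of the tendon lineage, removes a floxed part of Vhl, so cells outside the Scx lineage keep an intact Vhl. The age and sex of the mice, and whether each library came from a separate mouse, are not given in the sources used here. The p-values therefore measure the spread between these libraries.

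Copper is both a cofactor and a poison, and cells keep almost none of it free. Slc31a1 (CTR1) carries reduced copper across the plasma membrane, and small carrier proteins then pass it on: Ccs to superoxide dismutase 1, and Atox1 to the ATPases of the secretory pathway. Atp7a and Atp7b load copper into newly made enzymes, among them the lysyl oxidases that cross-link collagen, and expel the excess. Atp7a is the more widely expressed of this pair and Atp7b is best known from liver. Metallothioneins are small cysteine-rich proteins that hold zinc and copper, and their genes are switched on by metals through the factor Mtf1 and by glucocorticoids and other stresses. Vhl marks the hypoxia-inducible factors for degradation, so its loss keeps them active at normal oxygen.

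Values below are CPM, counts brought to a common library size after scaling by the trimmed mean of M-values (TMM), and are given as mean ± SD over 8 libraries. The depth of a library was between 10488355 and 18753254 counts for knockout and between 10792900 and 16379401 counts for wild type samples, so 3 counts, used here as the floor of detection, corresponded to between 0.146 and 0.336 CPM. Vhl itself stood at 9.35 ± 1.25 CPM in knockout libraries and 20.5 ± 3.69 CPM in wild type ones, and the groups did not overlap. In whole tissue such as this, fewer cells of a type and less RNA per cell cannot be told apart. The 10 tendon cell markers summed to between 77590 and 181200 CPM in the knockout and between 130900 and 380900 CPM in the wild type. Most of these sums was Col1a1 and Col1a2, with means of 79640 and 39820 CPM in the knockout and 153500 and 108000 CPM in the wild type. The sums thus mainly follow these collagen genes. Of these markers 6 were lower in the knockout, 1 was higher and 3 did not pass by the test given next, with a median log2 fold change of −0.85. Kera (−2.18), Col1a2 (−1.44) and Fmod (−1.29) were the lowest. Comp was higher (0.39, adjusted p 0.0177), and Scx (0.84) and Thbs4 (0.022) were among those that did not pass. The part of tendon cells in lower values of other genes was not tested. Counts of 4 Y-linked genes were present in 2 knockout libraries (1 and 6) and in 2 wild type libraries (7 and 8), and summed to at most 1 count in each of the others.

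A gene was called where the adjusted p of the edgeR quasi-likelihood test was under 0.05 (Benjamini-Hochberg over 14803 tested genes). Differences between genotypes were very common in these libraries. Of all tested genes 48.3% were called, 25.6% higher and 22.7% lower in the knockout. The knockout libraries all lay above the wild type libraries for 10.8% of tested genes and all below for 8.61%. All 9 members passed the expression filter, Atp7b through its knockout counts alone. Of the 8 members that were tested, 3 were higher in the knockout (Mt1, Mt2 and Atp7a), 3 were lower (Ccs, Commd1 and Slc31a2) and 2 did not pass the threshold (Slc31a1 and Atox1). Their median log2 fold change was −0.17, against 0.018 over all tested genes. The scaling bears on the small differences among these. With total counts in place of TMM the median over all tested genes moved to 0.32, 85.4% of calls were higher in the knockout against 53.0% with TMM, and 3 members stayed past the threshold (Mt1, Mt2 and Atp7a).

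**Figure D1:**
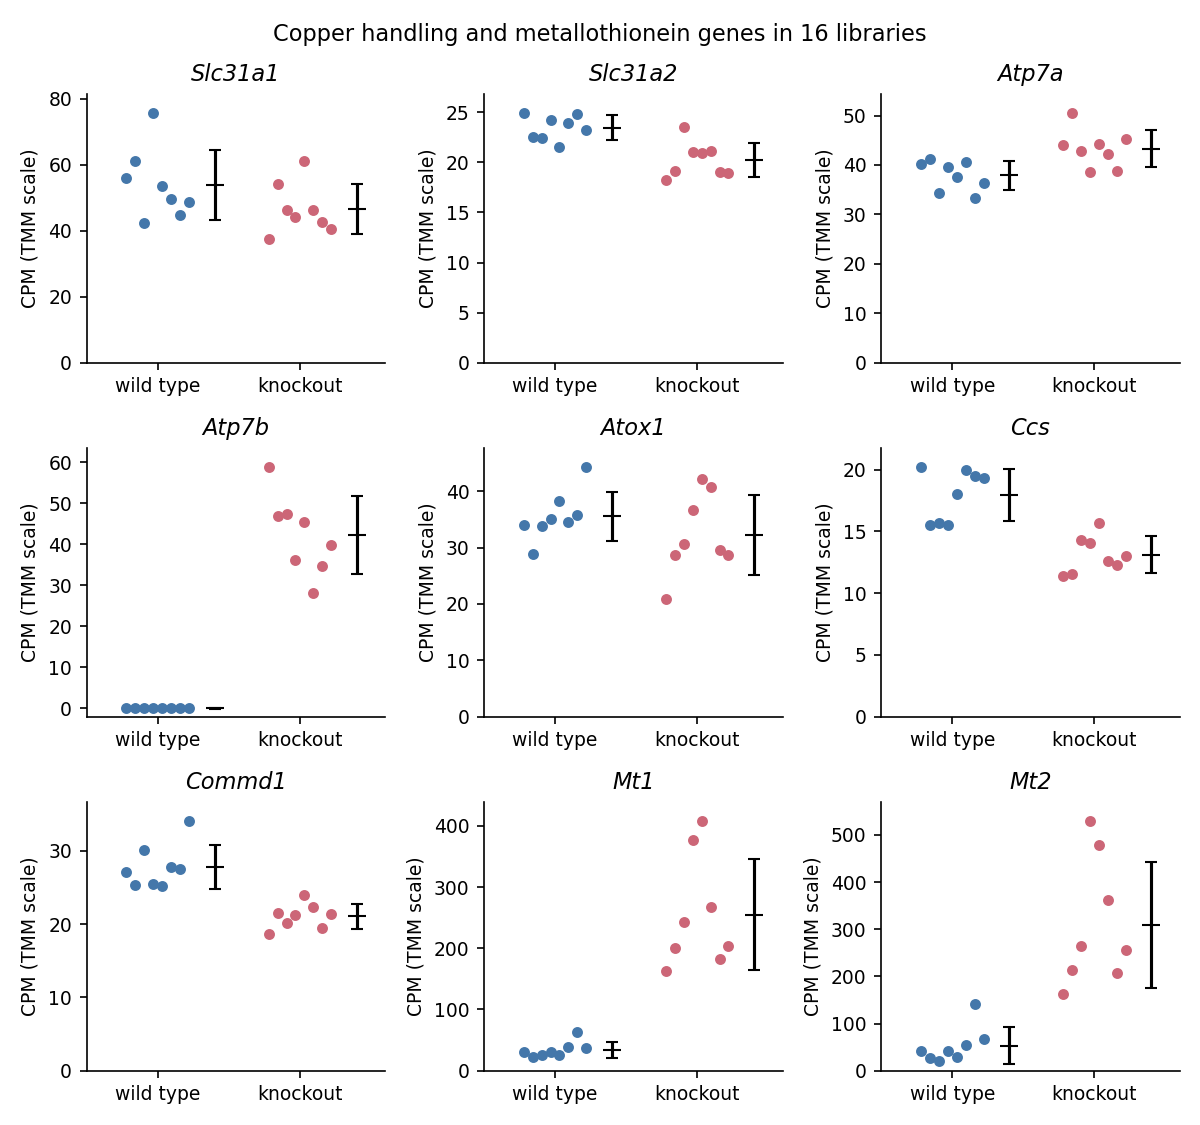
CPM (TMM scale, linear axes) of the 9 members in 8 wild type (blue) and 8 knockout (red) libraries; each point is a library, in replicate order from left to right, and the black bars are mean ± SD. Atp7b, Mt1 and Mt2 separate the genotypes with the knockout above, Commd1 separates them with the knockout below, and the other 5 members overlap.

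The importers differed little between the genotypes. Slc31a1 (ENSMUSG00000066150), on chromosome 4, ranged from 37.5 to 61.2 CPM in the knockout (median 45.3) and from 42.2 to 75.5 CPM in the wild type (median 51.6). The groups overlapped over most of their range, and the highest value of all was that of wild type library 4. The log2 fold change was −0.21 (SE 0.115, adjusted p 0.139), which did not pass the threshold. Its interval of about 95% runs from 0.738-fold to 1.01-fold, and without knockout library 5, the highest of its group, the adjusted p was 0.0427.

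Slc31a2 (CTR2, ENSMUSG00000066152), a relative of Slc31a1 that lies near it on chromosome 4 and affects how copper leaves internal compartments, was slightly lower. It ranged from 18.2 to 23.5 CPM in the knockout (median 20.1) and from 21.5 to 24.9 CPM in the wild type (median 23.6). Only knockout library 3 reached into the wild type range. The log2 fold change was −0.21 (SE 0.0612, adjusted p 0.00728). Scaled by total counts its value was 0.092, which lies 0.23 below the median of all tested genes on that scale and did not pass the threshold.

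Atp7a (ENSMUSG00000033792), the exporting ATPase of most tissues and an X-linked gene, was marginally higher in the knockout. Its levels ran from 38.5 to 50.4 CPM in the knockout (median 43.5) and from 33.3 to 41.2 CPM in the wild type (median 38.7), with overlapping groups. The log2 fold change was 0.19 (SE 0.0653, adjusted p 0.0204). Without the 4 libraries that hold Y-linked counts it was 0.16 (adjusted p 0.122) and no longer passed, with 6 libraries left in each group.

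Atp7b (ENSMUSG00000006567, chromosome 8), the second exporting ATPase, was below the floor of detection in the wild type and present in every knockout library. In the wild type 1 count was seen in library 3 and 0 in the other 7 libraries, out of 102395414 counts in all. In the knockout every library held between 451 and 918 counts. The knockout values were 58.8, 46.9, 47.3, 36.2, 45.4, 28.1, 34.6 and 39.9 CPM in libraries 1 to 8, a mean of 42.2 ± 9.51 CPM. Library 1 was the highest and library 6 the lowest, and each lay far above every wild type library. Against the floor of 3 counts per wild type library, which averaged 0.267 CPM, the knockout mean was at least 158-fold higher. The lowest knockout library stood at least 83.5-fold above the highest wild type floor.

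Divided by exon length, Atp7b stood at 6.48 ± 1.46 CPM per kb in the knockout and Atp7a at 4.96 ± 0.436 CPM per kb. The length is that of all annotated exons of a gene, not of the transcripts present, so levels of different genes compare only roughly. Atp7b was above Atp7a in 7 of 8 knockout libraries, and the ranges of the 2 genes overlapped. In the wild type Atp7a stood at 4.34 ± 0.343 CPM per kb and accounted for nearly all counts of exporting ATPases.

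The gene that starts next to Atp7b also differed. Alg11, a mannosyltransferase of protein glycosylation, lies 0.416 kb from Atp7b on the opposite strand of chromosome 8, so that both are read away from a shared stretch. Alg11 ranged from 35.0 to 50.2 CPM in the knockout and from 22.8 to 28.6 CPM in the wild type, with no overlap (log2 fold change 0.75, SE 0.0834, adjusted p 4.02e-07). The neighbour on the other side, Ccdc70, at 18.7 kb, had no counts in any library. Alg11 thus differed in the same direction as Atp7b, from a wild type level of 25.4 ± 2.07 CPM rather than from nothing.

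The RefSeq promoter window of Atp7b (250 bases before its start to 50 after, GRCm38.p6) was read for 2 short motifs on both strands. These were the core of the hypoxia response element, ACGTG or GCGTG, found in 43.8% of 32851 windows of this length, and the core of the metal response element that Mtf1 binds, TGCACNC or TGCGCNC, found in 25.7%. The Atp7b window holds no match to the hypoxia core and 1 to the metal core, 157 bases before the start. That match is shown because Atp7b had the largest response among the members; it is in capitals, in 30 bases of chr8:22060214-22060243 read on the minus strand.
Atp7b: tgtggtcctcgcTGCACCCtatctgcagcg
The match is a description of these letters only. Atp7a, which changed little, holds 5 hypoxia core matches and 2 metal core matches in its window. Its hypoxia matches at 87 and 86 bases before the start overlap, 1 on each strand, and are counted separately, as in all windows. A metal core match at 132 bases before its start contains one of the hypoxia cores.

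Markers of other cell types were read beside Atp7b, those of liver cells because the gene is best known there. Of 12 hepatocyte markers, 8 (Apoa1, Apob, Ttr, Serpina1a, Tat, Fga, Fgb and Ahsg) had at most 3 counts in every library, and the 12 summed to between 0.340 and 1.27 CPM in the knockout and between 0.448 and 1.54 CPM in the wild type. The 12 endothelial markers summed to between 59.7 and 555 CPM in the knockout and between 40.8 and 58.9 CPM in the wild type. Knockout library 2, whose endothelial sum of 59.7 CPM was next to the wild type range, held 46.9 CPM of Atp7b. The largest marker in the wild type was Tek (22.7 ± 5.14 CPM). Pecam1, at 0.867 ± 0.543 CPM in the wild type and 58.7 ± 52.5 CPM in the knockout, was higher in every knockout library than in any wild type one. A sum next to the wild type range thus does not show wild type endothelial content. The 14 skeletal muscle markers summed to between 425.5 and 25430 CPM in the knockout and between 103 and 10980 CPM in the wild type. Atp7b was lowest in knockout library 6 and next lowest in library 7, which had muscle sums of 17670 and 25430 CPM. It was at 45.4 CPM in library 5, which had the least muscle RNA of the knockout. Other libraries did not follow this order. Library 8, with a muscle sum of 22970 CPM, held 39.9 CPM of Atp7b, and library 4, with 1169 CPM, held 36.2 CPM. Library 1, the highest in Atp7b at 58.8 CPM, had a muscle sum of 4085 CPM. The part of endothelial or muscle cells in the Atp7b difference was not tested.

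**Figure D2:**
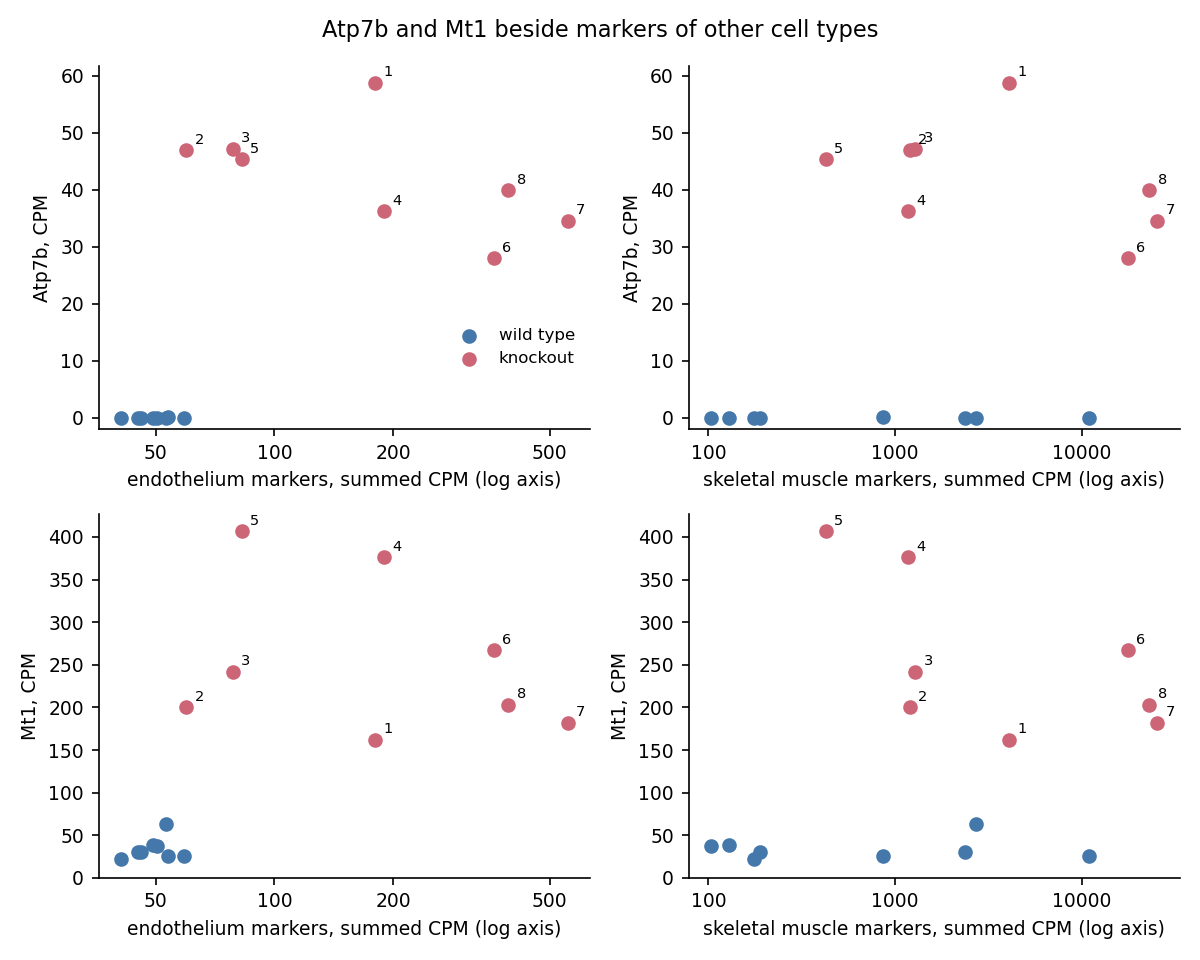
CPM of Atp7b (top) and Mt1 (bottom) against the summed CPM of 12 endothelial markers (left) and 14 skeletal muscle markers (right, both log axes) in each library; knockout points carry their replicate number. Atp7b and Mt1 lie above all wild type values in every knockout library, so this holds at any marker sum and is not a test of cell content. Knockout libraries 2, 3 and 5 have the lowest endothelial sums of their group. Wild type library 5, with 10980 CPM of muscle markers, is among the 7 wild type libraries with no count of Atp7b. The part of these cells was not tested. The endothelial sum includes Tek, which did not pass the threshold, and markers such as Pecam1 that were higher in every knockout library than in any wild type library.

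The cytosolic carriers were level or lower. Atox1 (ENSMUSG00000018585, chromosome 11), which hands copper to Atp7a and Atp7b, ranged from 20.9 to 42.2 CPM in the knockout (median 30.1) and from 28.8 to 44.2 CPM in the wild type (median 34.8). Knockout library 1 lay below all others and the groups overlapped widely. The log2 fold change of −0.14 (SE 0.120, adjusted p 0.360) did not pass the threshold, with an interval of about 95% from 0.773-fold to 1.07-fold. With total counts the sign turned, to 0.16 (adjusted p 0.272), and Atox1 again did not pass. Its neighbour Sparc, at 23.5 kb, was lower in every knockout library than in any wild type library (log2 fold change −1.76, adjusted p 1.21e-08).

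Ccs (ENSMUSG00000034108, chromosome 19), the carrier that loads superoxide dismutase 1, was lower. It ranged from 11.4 to 15.7 CPM in the knockout (median 12.8) and from 15.5 to 20.2 CPM in the wild type (median 18.7). Only knockout library 5 reached the lowest wild type values. The log2 fold change was −0.45 (SE 0.0857, adjusted p 0.000222). Sod1, the enzyme that Ccs serves, stood at 61.6 ± 8.90 CPM against 89.9 ± 21.6 CPM (log2 fold change −0.54, adjusted p 0.00188), so the carrier and its client were both lower. Scaled by total counts the values were −0.14 for Ccs (adjusted p 0.142) and −0.24 for Sod1 (adjusted p 0.117), and neither passed.

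Commd1 (ENSMUSG00000051355, chromosome 11), a protein of the endosomal complex that returns Atp7a and Atp7b to the cell surface, was lower in every knockout library than in any wild type library. Its range was 18.6 to 23.9 CPM in the knockout (median 21.3) and 25.2 to 34.0 CPM in the wild type (median 27.3). The log2 fold change was −0.40 (SE 0.0717, adjusted p 0.000118), and −0.10 when scaled by total counts (adjusted p 0.342), which lies 0.42 below the median of all genes on that scale. Exons of Commd1 overlap those of Gm28048 on the same strand (294 of 5936 bases) and of Zrsr1 on the opposite strand (412 bases), so its counts are uncertain to that extent. Of its neighbours, B3gnt2 was also lower (log2 fold change −0.33, adjusted p 0.00148) and Cct4 did not pass the threshold (−0.10, adjusted p 0.334).

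The metallothioneins rose several-fold. Mt1 (ENSMUSG00000031765) ranged from 162 to 407 CPM in the knockout (median 223) and from 22.1 to 63.1 CPM in the wild type (median 30.3). Every knockout library lay above every wild type library, libraries 4 and 5 being the highest. The mean was 255 ± 90.8 CPM against 34.0 ± 13.1 CPM, which is a log2 difference of 2.91 (SE 0.251, adjusted p 6.33e-08). This is a 7.51-fold difference with an interval of about 95% from 5.34 to 10.6.

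Mt2 (ENSMUSG00000031762) ranged from 162 to 529 CPM in the knockout (median 261) and from 21.5 to 142 CPM in the wild type (median 42.4). The groups again did not overlap, but wild type library 7, at 142 CPM, came close to knockout library 1, at 162 CPM. The mean was 309 ± 134 CPM against 52.9 ± 38.9 CPM, which is a log2 difference of 2.55 (SE 0.402, adjusted p 8.09e-05), or 5.85-fold (3.39 to 10.1). Without the 4 libraries that hold Y-linked counts, wild type library 7 among them, the log2 fold change was 3.18 for Mt2 and 3.23 for Mt1. Exons of Mt2 overlap an antisense transcript, Gm45774, over 432 of 588 bases. Mt1 and Mt2 are close paralogs whose reads a counting step may share out unevenly, so their exact proportions are uncertain. The other members of the family were scarce: Mt3 at 0.739 ± 0.312 CPM in knockout libraries and 0.971 ± 0.583 CPM in wild type ones, with at most 1.89 CPM in a library, and Mt4 with 1 count in all, in wild type library 7. Neither passed the expression filter.

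Mt1 and Mt2 lie 5.51 kb apart on chromosome 8 and moved together from library to library. Pearson's r of their log2 CPM was 0.974 over the 8 knockout libraries and 0.973 over the 8 wild type libraries, as a description of points that share depth and tissue composition. The ratio of Mt1 to Mt2 counts, which needs no scaling, had a geometric mean of 0.849 in the knockout (range 0.712 to 0.9995) and 0.729 in the wild type (range 0.446 to 1.17). The ratio was lowest in wild type libraries 7 and 8 and highest in wild type library 3. The difference of 0.22 on the log2 scale did not pass the threshold in a two-sided exact permutation test over 12870 assignments (p 0.200). Without wild type library 3 it was 0.32 (p 0.0294), and without wild type library 7 it was 0.12 (p 0.398), so the size and the side of the threshold rest on single wild type libraries. The next gene beyond Mt1, Nup93, at 34.2 kb, stood at 35.8 ± 2.12 CPM and 36.8 ± 3.57 CPM (adjusted p 0.615).

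**Figure D3:**
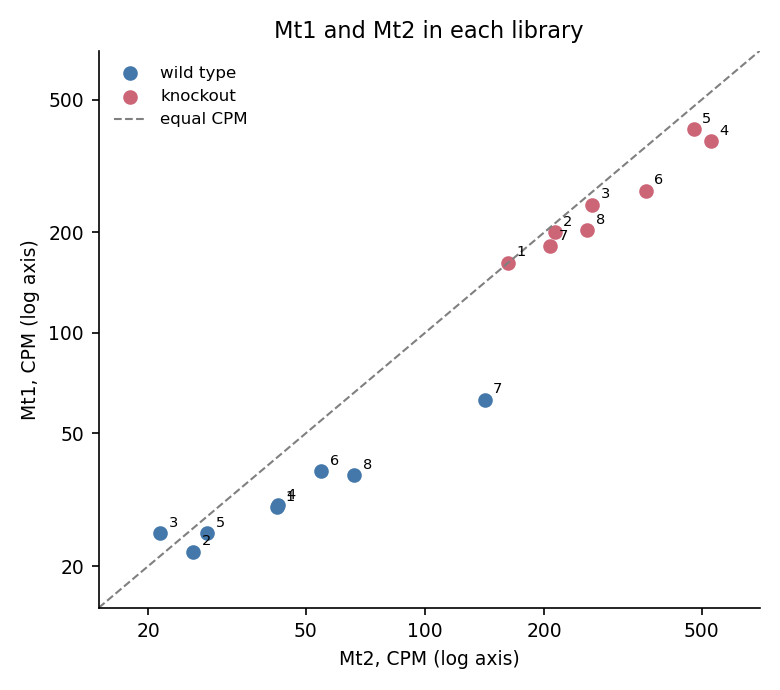
Mt1 against Mt2 in CPM on log axes, 1 point per library with its replicate number; the dashed line marks equal CPM. The 8 knockout libraries lie above 160 CPM on both axes, the wild type libraries lie below them along the same diagonal, and wild type library 7 (63.1 and 142 CPM) lies between the others and the knockout.

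The promoters of this pair are shown because both genes moved together and because they are textbook targets of the metal response element. Capitals mark matches to its core, TGCACNC or TGCGCNC, on either strand. The sequences are from RefSeq (GRCm38.p6), on the plus strand: Mt1 at chr8:94178839-94179081 and, after its start, chr8:94179089-94179118, and Mt2 at chr8:94172368-94172617 and chr8:94172618-94172647. The bases of Mt1 between its 2 stretches, directly before the start, are not printed, so these stretches do not join.
Mt1 before the start: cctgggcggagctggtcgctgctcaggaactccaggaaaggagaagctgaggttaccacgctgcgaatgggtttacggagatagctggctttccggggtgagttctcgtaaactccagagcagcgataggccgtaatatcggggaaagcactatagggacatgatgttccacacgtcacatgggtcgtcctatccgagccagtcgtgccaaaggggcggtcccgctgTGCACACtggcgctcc
Mt1 after the start: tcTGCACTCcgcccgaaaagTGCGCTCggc
Mt2 before the start: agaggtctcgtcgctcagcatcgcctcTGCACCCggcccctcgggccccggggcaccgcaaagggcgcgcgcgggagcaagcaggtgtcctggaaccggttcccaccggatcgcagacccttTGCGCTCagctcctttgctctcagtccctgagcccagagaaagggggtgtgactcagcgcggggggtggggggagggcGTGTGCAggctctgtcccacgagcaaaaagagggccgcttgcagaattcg
Mt2 after the start: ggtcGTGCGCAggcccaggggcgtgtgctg
The Mt1 window holds 3 metal core matches and the Mt2 window 4. Of all windows 1.97% hold at least 3 and 0.517% at least 4. Each of the 2 windows also holds 2 hypoxia core matches, and 20.6% of all windows hold at least 2. In Mt2 the hypoxia match at 52 bases before the start overlaps a metal match at 50 bases.

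Promoter windows were found for 8 of the 9 members, and Ccs was not among them. The metal core is found 0 times in the windows of Slc31a1 and Atox1, and 1 time in those of Slc31a2 and Atp7b and in both windows of Commd1. The hypoxia core was found 5 times in the window of Slc31a2, 1 time in those of Slc31a1 and Atox1, and 0 and 1 time in the 2 windows of Commd1. In Slc31a2 the matches at positions 1 and 2 from the start overlap, 1 on each strand, and are counted separately. Atp7a and Slc31a2 thus hold the most hypoxia core matches among the members.

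Per kb of exon, the order of levels in the wild type was Mt2 (90.0 CPM per kb), Atox1 (65.8), Mt1 (27.3), Slc31a1 (12.6), Slc31a2 (11.6), Ccs (10.1), Commd1 (4.69), Atp7a (4.34) and Atp7b. In that order Mt2 overlapped Atox1, Slc31a1 overlapped Slc31a2, Slc31a2 overlapped Ccs, and Commd1 overlapped Atp7a. In the knockout the order was Mt2 (525 CPM per kb), Mt1 (205), Atox1 (59.6), Slc31a1 (10.9), Slc31a2 (9.96), Ccs (7.36), Atp7b (6.48), Atp7a (4.96) and Commd1 (3.55). Here Mt2 overlapped Mt1, Slc31a1 overlapped Slc31a2, and Ccs overlapped Atp7b, which overlapped Atp7a. Between the genotypes Mt1 passed Atox1, and Atp7b entered at the level of Ccs and Atp7a. These orders rest on the annotated exon lengths, such as 1246 bases for Mt1, 588 for Mt2, 541 for Atox1 and 5936 for Commd1.

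Within a genotype the members did not vary as a single block. With genotype means subtracted, over 16 libraries, Mt1 varied most like Mt2 (Pearson's r 0.957 among 10206 genes compared), then Nfkbia (0.905), the inhibitor of NF-κB, then Alox5ap (0.881), Rbfa (0.879) and Hes6 (0.870). Among the members, Ccs (0.733) and Atox1 (0.668) were the nearest to Mt1 after Mt2. Over the 8 knockout libraries Atp7b varied most like Bhlhe40 (0.985 among 10387 genes compared), Nup188 (0.977), Nbas (0.976), Sfmbt2 (0.970) and Chsy3 (0.969), and ran against Atox1 (−0.650) and only weakly against Mt1 (−0.290). Atp7a was most like Frk (0.851), Gorab (0.831), Rcbtb2 (0.827), Pcdhb14 (0.827) and Egfl6 (0.826). These are descriptions over few libraries that share depth and composition.

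The rest of the copper pathway was read from lists of 62 genes, of which 55 were tested. Of these 7 were higher in the knockout, 17 were lower and 31 did not pass the threshold, with a median log2 fold change of −0.090. Of all tested genes 25.6% were higher and 22.7% were lower. With total counts 29 of the 55 were higher and 6 were lower, beside 8270 higher and 1415 lower of all 14803 tested genes. All 7 of the genes that were higher remained so on that scale, and of the 17 that were lower 14 kept their sign and 6 still passed the threshold (Cybrd1, Steap2, Clu, App, Loxl4 and Pam). That scale moved the median of all tested genes from 0.018 to 0.32, which favours higher calls and weakens lower ones. The higher calls are thus not shown to be firmer than the lower ones.

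Of the 7 genes for copper reduction and other metal import, 1 rose, 3 fell and 3 did not pass. Cybrd1, a ferric and cupric reductase of the plasma membrane, stood at 18.5 ± 8.36 CPM against 86.1 ± 19.4 CPM in wild type libraries (log2 fold change −2.23, adjusted p 1.77e-06). Steap2 and Steap3, which also reduce iron and copper, had log2 fold changes of −0.91 (adjusted p 6.92e-09) and −0.40 (adjusted p 0.00193). Slc11a1, a divalent metal transporter of macrophages, stood at 11.8 ± 2.84 CPM against 5.77 ± 0.846 CPM (log2 fold change 1.03, adjusted p 5.98e-06). The 10 macrophage markers summed to between 1337 and 1978 CPM in the knockout and between 1221 and 1777 CPM in the wild type, and their part in the Slc11a1 difference was not tested. Steap1 and Steap4 did not pass. With total counts Steap3 was at −0.095 (adjusted p 0.424) and Steap4 at 0.62 (adjusted p 0.0223), and the list had 3 higher and 2 lower.

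Of the 11 genes for copper delivery to cytochrome oxidase in mitochondria, 1 was higher, 2 were lower and 8 were not past the threshold, whereas with total counts 8 were higher and 0 were lower. Cox17, the copper carrier of this route, had a log2 fold change of −0.33 (adjusted p 0.0253), and Sco1 and Sco2, which insert the copper, had values of 0.10 and −0.054 that did not pass. Among 13 other COMMD proteins and partners of Commd1, 1 was higher, 1 was lower and 11 did not pass, with a median of 0.015, close to that of all tested genes. With total counts 9 of them were higher and 0 were lower.

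Of 9 proteins known to bind or act on copper transporters and carriers, 4 were lower and 5 did not pass; with total counts 3 were higher and 2 were lower. Clu, an extracellular chaperone that also binds Atp7a and Atp7b, fell from 1018 ± 230 CPM in the wild type to 139 ± 24.9 CPM (log2 fold change −2.87, adjusted p 6.28e-12). Its knockout values of 108 to 181 CPM were all below the wild type values of 684 to 1366 CPM. App, Prnp and Xiap had log2 fold changes of −0.57, −0.39 and −0.27, the last turning to 0.033 with total counts.

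Copper-dependent enzymes changed in both directions. Of 19 listed 14 were tested, of which 4 were higher, 6 were lower and 4 did not pass, or 6 higher and 2 lower with total counts. Cp, the plasma ferroxidase ceruloplasmin, which receives copper in the secretory pathway, stood at 29.6 ± 8.31 CPM against 4.56 ± 0.991 CPM in wild type libraries (log2 fold change 2.70, adjusted p 2.86e-10). Its membrane-bound relative Heph stood at 7.57 ± 1.30 CPM against 1.96 ± 0.513 CPM (log2 fold change 1.94, adjusted p 4.88e-09). Neither gene overlapped between the groups, and both are multicopper ferroxidases. The third relative on the list, Hephl1, averaged 0.237 CPM and 0.012 CPM, with overlapping groups, and was too low to be tested. Small parts of their exons overlap other genes (108 of 9566 bases with Hps3 for Cp, 29 of 7662 with Hsf3 for Heph).

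Aoc3, an amine oxidase of vascular smooth muscle and fat, stood at 8.56 ± 9.04 CPM against 0.373 ± 0.236 CPM (log2 fold change 4.54, adjusted p 0.000190). Its highest values, 10.3, 23.3 and 21.5 CPM, were in knockout libraries 6, 7 and 8, which also had the highest sums of the 10 mural cell markers (1589, 1964 and 1639 CPM, against 274 to 640 CPM in the other knockout libraries and 210 to 389 CPM in the wild type). In the other 5 knockout libraries Aoc3 ranged from 1.27 to 5.02 CPM, above the highest wild type value of 0.796 CPM. The mural sums hide changes of single markers. Cspg4, the largest of them in wild type libraries at 217 ± 27.9 CPM, was lower in the knockout (log2 fold change −0.27, adjusted p 0.0319). With total counts Cspg4 was at 0.027 and did not pass. Rgs5 (6.1) and Notch3 (4.22) were higher in every knockout library than in any wild type one. These sums thus do not show that the other 5 libraries had wild type mural content. Knockout libraries 6, 7 and 8 also had the highest knockout sums of the adipocyte markers (49.5, 93.1 and 50.8 CPM) and of the endothelial markers (360, 555 and 392 CPM). The same held for the skeletal muscle markers (17670, 25430 and 22970 CPM). The match of Aoc3 is thus not particular to mural cells. The part of mural or of these other cells in the Aoc3 difference was not tested. Among the lysyl oxidases Loxl1 was higher (77.1 ± 14.2 CPM against 39.1 ± 4.77 CPM, log2 fold change 0.98, adjusted p 1.89e-07). Lox, the main collagen cross-linking enzyme of the family, was lower (2465 ± 714 CPM against 3511 ± 646 CPM, log2 fold change −0.51, adjusted p 0.0126), as were Loxl3 (−0.33) and Loxl4 (−0.80), while Loxl2 (−0.27) did not pass. Pam, which amidates peptides, and Moxd1 were also lower (−0.51 and −0.56).

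**Figure D4:**
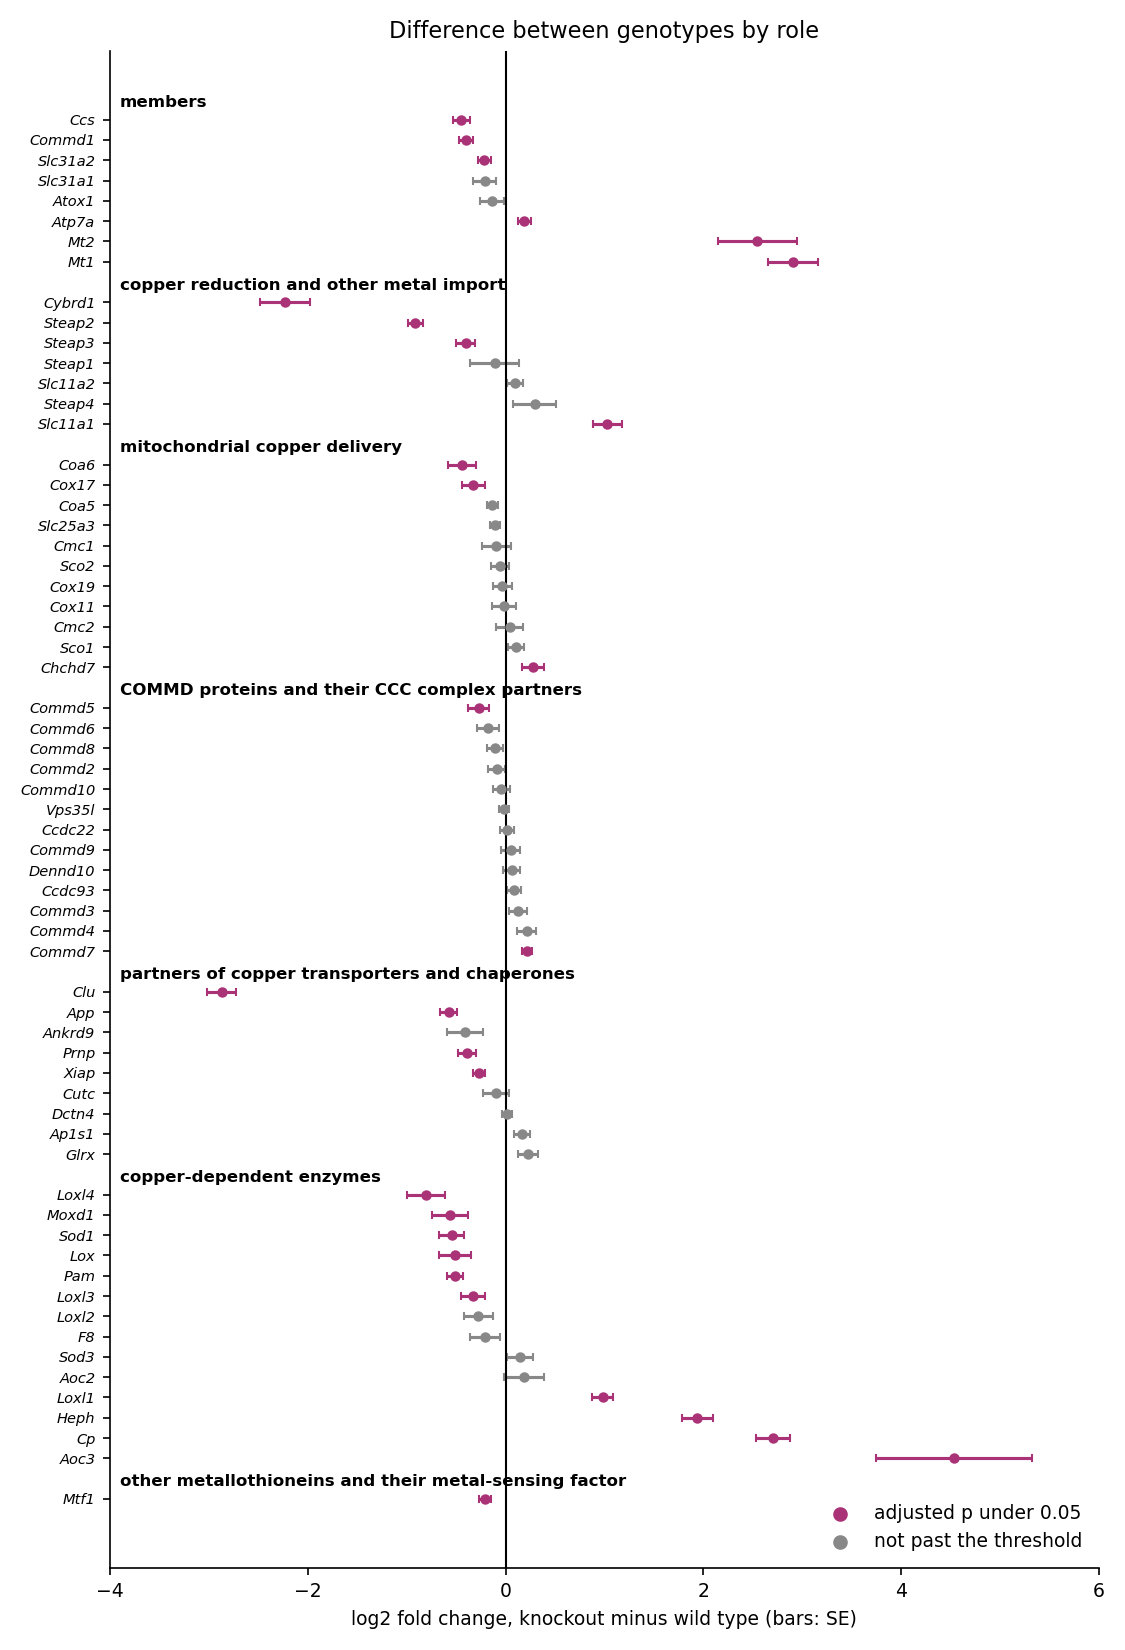
Log2 fold changes (knockout minus wild type, TMM scale) with SE for the 8 tested members and 55 tested genes of the copper pathway, grouped by role; purple marks an adjusted p under 0.05 and Atp7b is not plotted because it has no test. Mt1 and Mt2 stand with Cp, Heph and Aoc3 on the right, Clu and Cybrd1 on the left, and most genes of mitochondrial delivery and of the COMMD group lie near 0.

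The regulators and metals that metallothioneins answer to were read in the same way. Mtf1, the metal-sensing factor, stood at 23.9 ± 1.05 CPM against 27.6 ± 2.55 CPM (log2 fold change −0.21, adjusted p 0.00901; 0.097 with total counts, not past the threshold). Part of its exons overlaps 1110065P20Rik on the opposite strand. Slc30a1, the zinc exporter that is itself a target of Mtf1, was also lower, at 20.7 ± 2.07 CPM against 25.3 ± 2.77 CPM (log2 fold change −0.29, adjusted p 0.00441; 0.016 with total counts).

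Of 24 zinc transporters 16 were tested, of which 2 were higher (Slc30a9 and Slc39a1), 6 were lower and 8 did not pass. Slc39a8, a zinc, manganese and cadmium importer, stood at 2.15 ± 0.607 CPM against 4.58 ± 1.82 CPM (log2 fold change −1.09, adjusted p 0.000312). Without the 4 libraries with the most muscle RNA (knockout 6, 7 and 8 and wild type 5), 5 zinc transporters passed in place of 8. With total counts 7 were higher and 1 was lower. Of all 14803 tested genes 7151 were called with TMM (3792 higher and 3359 lower) and 9685 with total counts (8270 higher and 1415 lower).

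Of 10 genes that glucocorticoids induce, 2 were higher, 1 was lower and 7 did not pass, with a median log2 fold change of 0.041. Sgk1, a kinase of ion transport, stood at 122 ± 48.4 CPM against 52.2 ± 18.9 CPM (log2 fold change 1.23, adjusted p 0.000939). Pdk4, which restrains pyruvate oxidation, stood at 16.2 ± 14.9 CPM against 6.05 ± 4.04 CPM (log2 fold change 1.44, adjusted p 0.0462), a call that was lost in 6 of 10 alternatives and on leaving out 11 of the 16 libraries in turn. Klf9 was lower (−0.51, adjusted p 0.00768), but with total counts it was at −0.20 and did not pass. Fkbp5 (0.14), Tsc22d3 (−0.44) and Per1 (0.063), widely used readouts of glucocorticoid action, did not pass the threshold. With total counts 3 of the list were higher (Pdk4, Sgk1 and Per1, the last at 0.37 with adjusted p 0.0345) and 0 were lower.

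Mt1 and Mt2 were read against the same markers of other cells as Atp7b. The highest Mt1, 407 CPM, was in knockout library 5, which had the lowest sum of muscle markers in its group (425.5 CPM) and an endothelial sum of 82.5 CPM. Knockout library 7, with the highest endothelial and muscle sums, had 182 CPM of Mt1, the next to lowest of the knockout values. The 7 erythroid markers found summed to between 77.8 and 563 CPM in the knockout and between 15.1 and 50.8 CPM in the wild type, so these groups did not overlap either. Mt1 was at 182 CPM in library 7, which had the lowest erythroid sum of the knockout, and at 407 CPM in library 5, which had a sum of 555 CPM next to the highest. Other knockout libraries did not follow this order. Mt1 was at 267 CPM in library 6, which had the highest sum, and at 201 CPM in library 2, with a sum of 505 CPM. It was at 242 CPM in library 3, with a sum of 126 CPM. The part of endothelial, muscle or blood cells was not tested.

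The 10 macrophage markers went with Mt1 within each genotype. In the knockout Mt1 was lowest in libraries 1 and 7, with macrophage sums of 1337 and 1434 CPM, and highest in libraries 4 and 5, with 1796 and 1978 CPM. In the wild type the libraries with the most Mt1 (6, 7 and 8) had the highest macrophage sums (1612, 1687 and 1777 CPM, against 1221 to 1412 CPM in the others). Between the genotypes the macrophage sums overlapped: wild type library 8, at 1777 CPM, had 37.6 CPM of Mt1, and knockout library 1, at 1337 CPM, had 162 CPM. The part of macrophages in the spread of Mt1 within a genotype was not tested. Without the 4 libraries of most muscle RNA the same 6 members passed the threshold.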

How the data were processed

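Total RNA of 16 tail tendon fascicle samples was sequenced. The authors deposited 1 table of whole-number counts per library, named matched counts per the file headers. The submitters' processing notes name kallisto, featureCounts and the genome build GRCm39, without their roles. The use of strand is not given in the sources used here. Symbols were matched for 25614 of 25719 Ensembl identifiers, and 105 had none. Dennd10 was matched through a synonym, and the erythroid marker Ahsp was not found. Because the supplied annotation (GENCODE M21) is of another build, GRCm38, it gave only chromosomes, gene order, exon overlaps and exon lengths.

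Samples were grouped by the genotype in the labels. Counts were tested with edgeR 4.0.16 under R 4.3.3, by its two-sided quasi-likelihood F test (TMM, robust, default filter on genotype), with Benjamini-Hochberg adjustment over 14803 genes that held at least 99.7% of each library's counts. The SE is the log2 fold change divided by the square root of F, and intervals of about 95% use it. Log2 CPM used a prior count of 2. Floors cover counting error only. No library repeated another: the most similar pair of a group had a chi-square of 6.56 per degree of freedom. The fit was tested on simulated data.

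Cell type marker lists were used mainly as sums. The members and lists were chosen with earlier results of these data known. All members are named, and from each list of copper, zinc or glucocorticoid genes up to 3 genes in each direction with an adjusted p under 0.05 and an absolute log2 fold change of at least 1. Other list genes (Steap1 to Steap4, Hephl1, Sod1, the lysyl oxidases, Pam, Moxd1, Cox17, Sco1, Sco2, App, Prnp, Xiap, Slc30a1, Slc30a9, Slc39a1, Klf9, Fkbp5, Tsc22d3 and Per1) were named for their role after their values were seen. The tendon markers Kera, Col1a1, Col1a2, Fmod, Comp, Scx and Thbs4 were likewise named after their values were seen. The vascular markers Tek, Pecam1, Cspg4, Rgs5 and Notch3 were also named after their values were seen. The 5 genes of highest correlation were named for Atp7b, Mt1 and Atp7a among genes of mean log2 CPM of at least 3. Neighbours of members were named where their groups did not overlap. The neighbours Ccdc70, B3gnt2, Cct4 and Nup93, whose groups were not separate, were named as well. Alternatives were DESeq2 1.42.0 (size factors and Wald test), total counts, other filters, limma 3.58.1 voom, a replicate block, a muscle score as covariate, and leaving out each library, and, chosen after seeing the data, leaving out the 4 libraries with a muscle score above 8 or the 4 with Y-linked counts.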

Additional observations from a re-analysis of the deposited data

Results flagged for a closer look

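Both metallothioneins had 1 wild type library apart from the other 7 on the CPM scale. In wild type library 7 Mt1 stood at 63.1 CPM, against 38.5 CPM in the next library, a gap of 0.600 of the group's range. In the same library Mt2 stood at 142 CPM, against 66.3 CPM in the next, a gap of 0.626 of the range. Both gaps are above Dixon's critical value for 8 samples at the 95% level. Of 36 checks of a group, on the CPM or log2 scale, these 2 were flagged, and on the log2 scale neither gene was. Wild type Atp7b, with 1 count in library 3 and none in the other 7, was below the floor of detection and is not among these 2. Chance alone flags about 1 group in 20, and since Mt1 and Mt2 vary together the 2 are not separate findings. Wild type library 7 also had the lowest ratio of Mt1 to Mt2 counts, 0.446, and was among the 2 wild type libraries with Y-linked counts. Without the 4 libraries that hold Y-linked counts the log2 fold change of Mt2 was 3.18 in place of 2.55.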

How the results depend on the processing

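The rise of Mt1 and Mt2 kept its direction and call in every alternative run. With total counts the number of members past the threshold was 3 in place of 6, and the log2 fold changes of 3 members changed sign, Slc31a1 to 0.098, Slc31a2 to 0.092 and Atox1 to 0.16; relative to the median of all genes on that scale they were −0.22, −0.23 and −0.16. Without the 4 libraries of most muscle RNA, 5 zinc transporters were called in place of 8, and without the 4 libraries with Y-linked counts Atp7a did not pass. Leaving out each library in turn gave 6 to 7 members called, 20 to 26 copper pathway genes, 7 to 9 zinc transporters and 2 to 3 glucocorticoid-induced genes. For the difference in the log2 ratio of Mt1 to Mt2 it gave 0.118 to 0.317 (p 0.0294 to 0.398). Over the other alternatives the copper pathway count ran from 18 to 35. The fitted log2 fold change of Atp7b depends on the prior count (9.71 with voom, 12.13 without wild type library 3) and is no bound. Replicate numbers did not pair the samples (correlations of −0.397 to 0.394); with the replicate number as a block 7010 genes were called in place of 7151, 6 members passed, and the ratio difference was 0.22 (p 0.156). Genes with under about 3 counts per library, such as Mt4, cannot be compared at this depth.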
